A study of Mus musculus with 10 samples.

Results

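The sites described here are 4119 weaker STAT5B binding sites of wild type mammary tissue at which no STAT5B peak was called in tissue without Stat5a. They were chosen from peak lists of chromatin immunoprecipitation followed by sequencing (ChIP-seq): a wild type STAT5B peak with a score below 24.4, overlapping a wild type STAT5A peak by at least 1 bp and overlapping no STAT5B peak of Stat5a-null tissue. They make up 59.0% of the 6976 wild type STAT5B peaks (exact Clopper-Pearson 95% interval 57.9% to 60.2%), of which 65.2% in all had no Stat5a-null peak. Throughout, "lost" means that no Stat5a-null peak was called at the site and "kept" that one was. The choice used both STAT5B lists, so the size of the lost class is a description and not a result.

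STAT5A and STAT5B, a pair of near-identical transcription factors, are phosphorylated by JAK2 when prolactin binds its receptor, then dimerise and enter the nucleus. Both recognise the same short palindromic DNA element, and they can bind as dimers or, at neighbouring elements, as tetramers. In the mouse mammary gland STAT5A is the more abundant of the 2 and is needed for full alveolar development and milk secretion, while STAT5B is better known for growth hormone responses in liver.

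Whole mammary tissue was collected on the day of parturition from mice of mixed 129SV::FVB/N::C57BL/6 background. Wild type mice carried both genes (AABB), and Stat5a-null mice (BB) retained Stat5b alone. The 3 lists come from 1 library each, namely STAT5A in wild type, STAT5B in wild type and STAT5B in Stat5a-null tissue, and the labels do not say how many animals were pooled. With 1 library per group there is no replicate check and no p-value, and intervals cover counting error over peaks only. The tissue holds several cell types, so fewer secretory cells and less binding per cell cannot be told apart in Stat5a-null tissue. The other 7 samples of the series were not analysed here, among them STAT5A in Stat5a-null tissue, and whether the STAT5A and STAT5B antibodies bind only their own protein was not tested.

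The wild type STAT5B score of these sites ran from 9.3 to 24.1, with a median of 14.8 and quartiles of 12.9 and 17.7. The score is the authors' value for a peak and is used here only within its own list. All scores of the list were whole multiples of 0.239, and read as the value of 1 sequenced tag this gives 39 to 101 tags per site with a median of 62. Exact Poisson 95% intervals are 27.7 to 53.3 around 39 tags, 47.5 to 79.5 around 62 and 82.3 to 123 around 101. The intervals of the weakest and the strongest of the sites do not overlap, but those of many neighbours in the ranking do. The extremes were picked by the score that was used in the choice, so this is a description. The weakest peak called in the Stat5a-null list also held 39 tags.

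The score limit cuts a continuous range. At 24.1, the highest score inside it, 20 wild type peaks were lost and 20 kept. At 24.4, the lowest score outside it, 14 were lost and 19 kept. Scores of the overlapping STAT5A peak were alike on both sides, from 63.9 to 110.6 (median 96.3) at the 20 lost sites inside and from 69.7 to 114.6 (median 92.4) at the 14 lost sites outside.

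Below the limit, 5232 STAT5B peaks were called in wild type tissue. Of these, 63 overlapped no STAT5A peak, and of the 5169 others 4119 were lost and 1050 kept. The lost share, 79.7% (78.6% to 80.8%), compares with 65.2% of all wild type STAT5B peaks and 21.5% of the 1719 stronger ones with STAT5A, and it is fixed by the choice. Within the weaker range it fell steadily with score. It was 96.8% (94.95% to 98.1%) at scores from 9 to below 12, 92.5% from 12 to below 15 and 80.5% from 15 to below 18. It was 65.5% from 18 to below 21 and 50.8% (47.0% to 54.6%) from 21 up to the limit. The sites at the upper end were about as often kept as lost, and those at the lower end were nearly all lost. Both the STAT5B score and the lack of a Stat5a-null peak were used in the choice, so this fall is a description and not a result.

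The score of the STAT5A peak at a site took no part in the choice beyond the presence of that peak. STAT5A peaks at the lost sites were mostly high in their own list, which holds 26237 peaks. Their scores ran from 18.7 to 126.2 with a median of 59.6 (quartiles 49.5 and 72.3), and the median site lay at percentile 81.3 of the STAT5A list. Of the 4119, 471 (11.4%, 10.5% to 12.4%) lay in the highest-scoring decile of STAT5A peaks, 1830 (44.4%) in the next and 1336 (32.4%) in the one after. Only 18 (0.437%) lay at or below percentile 50. The 1050 weaker kept sites stood higher, with a median STAT5A score of 80.8 and 42.9% (39.8% to 45.9%) in the highest-scoring decile. The 369 stronger lost sites stood higher again, with a median of 110.8 and 94.9% in that decile.

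Kept sites also had higher STAT5B scores than lost ones (median 19.3 against 14.8), so STAT5A was compared within bands of STAT5B score. In all 5 bands lost sites had the lower median STAT5A score. The medians were 45.0 lost and 49.8 kept from 9 to below 12, 53.1 and 58.7 from 12 to below 15, and 65.6 and 69.6 from 15 to below 18. They were 76.3 and 81.9 from 18 to below 21, and 88.1 and 93.3 from 21 up to the limit. The difference was small beside the spread within a class: in the highest band the quartiles were 80.6 and 97.0 for lost sites and 85.4 and 100.7 for kept sites. STAT5B medians still differed slightly within bands, for instance 22.2 lost and 22.4 kept in the highest. Lost and kept sites were therefore also compared at single STAT5B scores. Among 53 scores with at least 5 sites of each class, the median STAT5A score was lower at lost sites for 46 and higher for 7, and the median of these differences was -4.2.

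**Figure D1:**
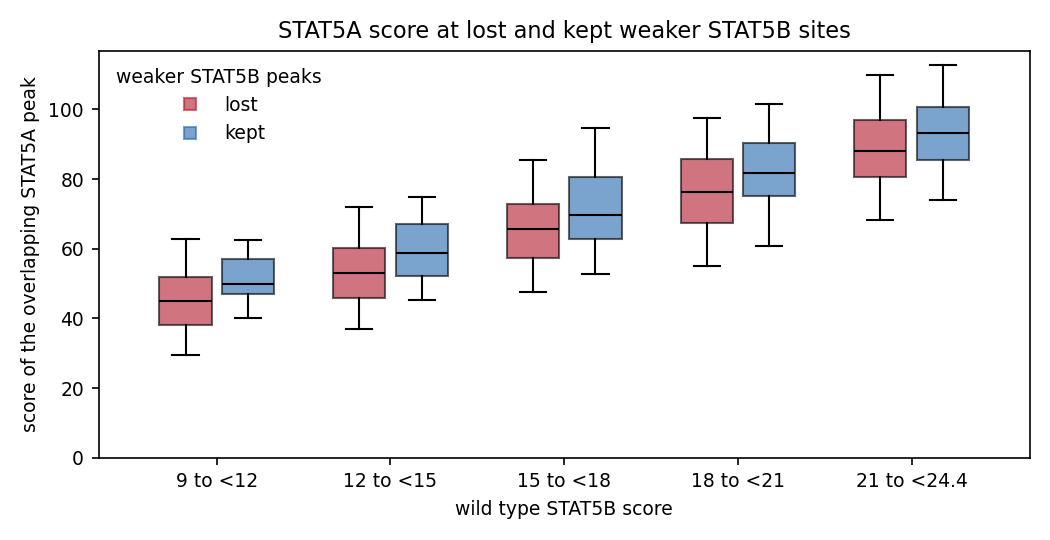
Score of the overlapping STAT5A peak (vertical axis, the authors' value) at weaker STAT5B sites that were lost (red) or kept (blue) without Stat5a, by band of wild type STAT5B score (horizontal axis). Boxes show quartiles and medians, whiskers the 5th and 95th percentiles. Medians of lost sites lie below those of kept sites in all 5 bands, with wide overlap.

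Read the other way, the lost share was higher at lower STAT5A scores in all 5 bands, and in 4 of the 5 bands the intervals did not overlap. This restates the comparison above on the same sites and is not a second test. Each band was split at its own median STAT5A score. From 21 up to the limit, 59.7% (54.4% to 64.9%) of sites with the lower STAT5A scores were lost, against 41.6% (36.3% to 47.0%) of those with the higher. From 18 to below 21 the shares were 74.3% (70.0% to 78.3%) and 56.6% (51.8% to 61.3%). From 15 to below 18 they were 85.0% (82.0% to 87.6%) and 75.9% (72.4% to 79.2%), and from 12 to below 15 they were 95.8% (94.3% to 97.0%) and 89.2% (86.9% to 91.1%). In the lowest band, with 17 kept sites in all, the shares of 98.9% and 94.7% had overlapping intervals. The parts with higher STAT5A also held slightly higher STAT5B scores (median 22.7 against 22.0 in the highest band), and this part of the difference was not tested apart.

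**Figure D2:**
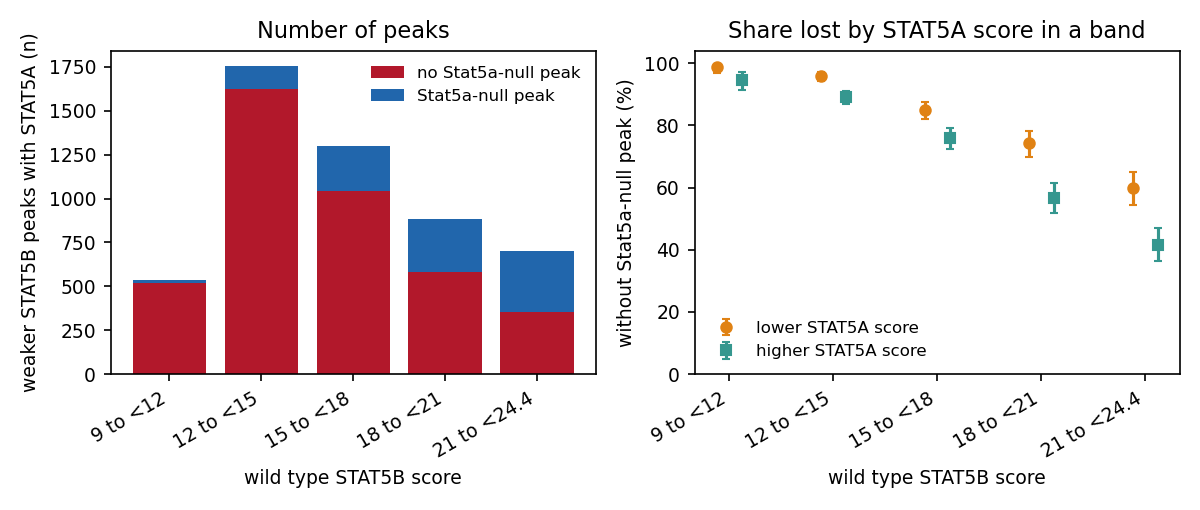
Left, number of weaker STAT5B peaks with STAT5A (vertical axis) by band of wild type STAT5B score, without (red) or with (blue) a Stat5a-null STAT5B peak. Right, share without a Stat5a-null peak (percent) for sites below or at (circles) and above (squares) the median STAT5A score of their band, with exact 95% intervals. The share lost falls from 96.8% to 50.8% over the bands and is lower at sites with higher STAT5A scores.

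The sites at the extremes show the spread. The highest STAT5A score at a lost site was 126.2, rank 791 of the STAT5A list, on chromosome 2 from 59124405 to 59124656 (mm9). Its STAT5B score was 23.4 (98 tags), and the nearest Stat5a-null peak lay 52.0 kb away. The next was on the same chromosome from 24927126 to 24927377, with a STAT5A score of 122.3 and a STAT5B score of 20.5, and the third was on chromosome 10 from 55864801 to 55865052, with scores of 119.7 and 22.4. All 3 sites also had STAT5B scores above the upper quartile of the class, 17.7. At the other end, the lowest STAT5A score was 18.7 (rank 18606), on chromosome 6 from 136417090 to 136417341. Its STAT5B score of 18.4 was above the class median, so the 2 lists ranked this site very differently. The site with the lowest STAT5B score, 9.3, lay on chromosome 9 from 35685210 to 35685461 and had a STAT5A score of 28.5.

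Among the 20 lost sites tied at the top STAT5B score of 24.1, STAT5A scores varied from 110.6 on chromosome 6 (49014442 to 49014693) to 63.9 on chromosome 13 (67461469 to 67461720). The 20 kept sites of the same score ranged from 113.9 on chromosome 2 (103009779 to 103010030) to 85.9 on chromosome 5 (118777984 to 118778235). The medians were 96.3 and 98.1. Of the lost sites, 7 lay below the lowest kept one: besides the site on chromosome 13 with 63.9, these had scores from 81.4 to 84.8. The classes overlapped over the rest of their range. Neighbouring STAT5B scores were mixed in this respect. At 23.9 and 24.6 the lowest STAT5A score was at a kept site (64.8 against 66.1 lost, and 75.9 against 77.5 lost). At 24.4 it was at a lost site (69.7 against 77.5 kept). Of the 20 lost sites at 24.1, the one nearest to a Stat5a-null peak lay 1.14 kb from it (chromosome 6 from 125499882 to 125500133), and the farthest lay 3339 kb away (chromosome 1 from 172516407 to 172516658).

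The centres of STAT5A and STAT5B peaks lay close together at lost sites, though less closely than at kept ones. The median distance between centres was 21 bp, with quartiles at 10 bp and 37 bp, and it was 17 bp at weaker kept sites. They were within 20 bp at 48.8% (47.3% to 50.4%) of lost and 58.8% (55.7% to 61.8%) of weaker kept sites. Within bands of STAT5B score the share was lower at lost sites in 4 of 5 bands, and the intervals of the classes overlapped in each single band. From 21 up to the limit, for example, the shares were 50.7% (45.4% to 56.0%) and 59.9% (54.5% to 65.1%). Only in the lowest band, which held 17 kept sites, was the share higher at lost sites, at 43.5% and 41.2%. Combined over the 5 bands, the share was lower at lost sites by a difference of -7.40 percentage points (95% interval -11.0 to -3.78, counting error only). Median STAT5A scores were also lower at lost sites in all 5 bands, and centres were not compared at like STAT5A scores.

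The list of Stat5a-null tissue held 2578 STAT5B peaks, and the distance to be expected from so few was not computed. Few lost sites lay near one of these peaks, and near misses were rare. The median distance to the nearest one was 153.9 kb (quartiles 36.38 kb and 495 kb) over the 4118 sites on a sequence that held such a peak. Only 3 sites had one within 100 bp, 31 (0.753%) within 500 bp and 81 (1.97%) within 1 kb. Within 5 kb there were 336 (8.16%, 7.34% to 9.04%), and within 50 kb 1226 (29.8%). Stronger lost sites were nearer at 10 kb (17.9%, 14.1% to 22.2%, against 12.9%, 11.9% to 13.9%) and at 50 kb (38.2%, 33.2% to 43.4%, against 29.8%, 28.4% to 31.2%). Within 5 kb the intervals overlapped, with 10.3% of stronger lost sites.

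**Figure D3:**
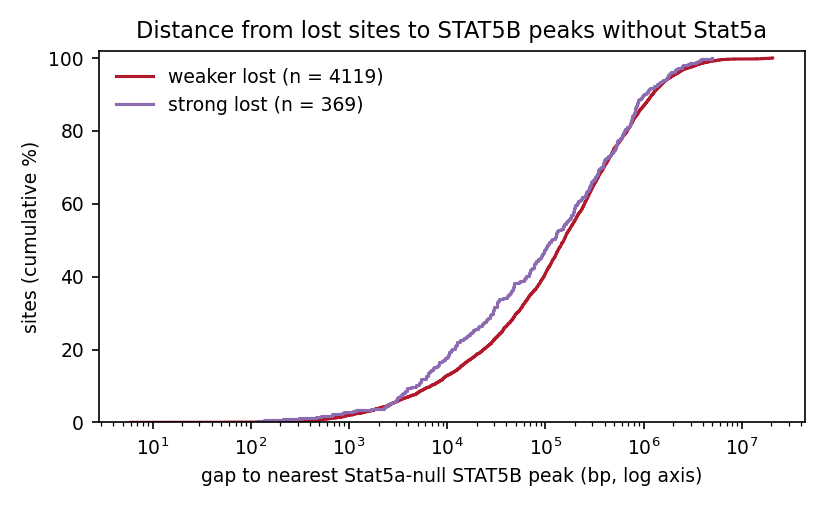
Cumulative share of sites (percent) by the gap to the nearest STAT5B peak of Stat5a-null tissue (bp, log axis), for the 4119 weaker lost sites (red) and the 369 stronger lost sites (purple). Only 8.16% of weaker lost sites lie within 5 kb of such a peak.

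Of the 336 sites within 5 kb of a Stat5a-null peak, the nearest such peak belonged to a stronger kept wild type STAT5B site in 193 cases and to a weaker kept site in 127. In 1 case it belonged to a weaker STAT5B peak without STAT5A, and in 15 it overlapped no wild type STAT5B peak. The 5 closest pairs were all of the last kind. Nothing is read from this, since other wild type STAT5B peaks lay at least 257 bp from these lost sites. A Stat5a-null peak of 258 bp this close had little room to overlap one. The closest pair was on chromosome 16 from 30416394 to 30416645 (STAT5B score 21.5), with a Stat5a-null peak 6 bp away. The others were on chromosome 3 from 107611309 to 107611560 (15 bp), chromosome 15 from 92134971 to 92135222 (55 bp), chromosome 19 from 43726120 to 43726371 (116 bp) and chromosome 13 from 102944876 to 102945127 (119 bp). At the first 2 of these, on chromosomes 16 and 3, the Stat5a-null peak overlapped the same STAT5A peak as the wild type STAT5B peak did. The other 4117 lost sites shared neither peak with a Stat5a-null peak.

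The frequencies of STAT5A and of wild type STAT5B neighbours had overlapping intervals around lost and kept sites of the weaker range. Another STAT5A peak lay within 10 kb of 60.2% (58.7% to 61.7%) of lost sites and of 59.9% (56.9% to 62.9%) of weaker kept ones. Another wild type STAT5B peak lay within 10 kb of 31.0% (29.6% to 32.4%) and 30.7% (27.9% to 33.6%). Both pairs of intervals also overlapped within each band of STAT5B score. Combined over the bands, the difference for STAT5A neighbours, lost minus kept, was 1.15 percentage points (95% interval -2.43 to 4.73). The share was lower at lost sites in 2 of 5 bands. For wild type STAT5B neighbours the combined difference was 2.38 points (-0.988 to 5.75), and the share was lower at lost sites in 0 of 5 bands. A STAT5B neighbour that was itself kept without Stat5a lay within 10 kb of 12.5% (11.5% to 13.5%) of lost sites and of 15.9% (13.7% to 18.3%) of weaker kept ones. Within bands of STAT5B score this share was lower at lost sites in 4 of 5 bands, and combined over the bands the difference, lost minus kept, was -2.15 percentage points (95% interval -4.74 to 0.438). Stronger lost sites had a STAT5B neighbour more often, at 43.9% (38.8% to 49.1%), as did stronger kept sites at 43.5%.

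Joined across gaps of up to 10 kb, the wild type STAT5B peaks formed 3660 groups that held a lost weaker site. Of the 4119 sites, 2843 (69.0%) were the only STAT5B peak of their group. Another 552 (13.4%) shared a group with at least 1 kept STAT5B peak, and 724 (17.6%) shared one with lost peaks only. Of the 817 groups of 2 or more peaks, 439 held a kept peak, 293 of them a stronger one. Lost and kept sites thus lay side by side in 439 groups.

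Runs of lost weaker sites were short. With gaps of up to 10 kb, 826 sites (20.1%, 18.8% to 21.3%) fell into runs of 2 or more, in 333 pairs, 41 triples and 8 longer runs of at most 6. The corresponding share for the 1050 weaker kept sites was 6.48%, but a class with fewer sites forms fewer runs, so nothing is read from the difference. The 3 longest runs are described next, without gene names, since the only gene table used is of GRCm38 and the peaks are on mm9.

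On chromosome 11, 6 lost sites lay in 19.02 kb from 117843061 to 117862076. Their STAT5B scores in order of position were 14.3, 15.5, 21.3, 18.4, 16 and 14.3, with STAT5A scores of 46.2, 62.3, 80.6, 68.5, 70.1 and 59.4. All 6 STAT5A peaks of the stretch carried one of these sites, and none had a Stat5a-null peak. Stat5a-null peaks were called on both sides, at -12.5 kb and 25.8 kb from the start of the run, at wild type STAT5B peaks scoring 22.2 and 29.1. A stronger lost site scoring 24.6 lay at -2.10 kb.

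On chromosome 9, 6 lost sites were spread over 39.05 kb from 107197990 to 107237038. Their STAT5B scores were 18.1, 17.7, 23.4, 17.9, 16.5 and 24.1, and their STAT5A scores 65.4, 79.5, 113.2, 74.5, 83.8 and 81.4. A stronger kept STAT5B peak scoring 66.1 lay in the same stretch, 1.01 kb from its start, with a Stat5a-null peak of 52.4 in its own list, and a stronger lost peak scoring 36.3 lay at 13.2 kb. Here 1 of the 8 wild type STAT5B peaks was kept, and it had the highest score.

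On chromosome 6, 5 lost sites lay in 9.27 kb from 114823779 to 114833043, with STAT5B scores of 12.7, 21.7, 17.2, 17.4 and 15.3 and STAT5A scores of 60.5, 98.6, 59.3, 52.7 and 53.8. The nearest Stat5a-null peak lay 7.85 kb beyond the end of the run, at a wild type STAT5B peak scoring 16.2. That kept peak scored lower in the STAT5B list than 3 of the 5 lost sites beside it. Its distance to the scores of 17.2 and 17.4 was within the counting error of a single peak's tags. Its STAT5A score, 82.6, was above those of 4 of the 5.

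**Figure D4:**
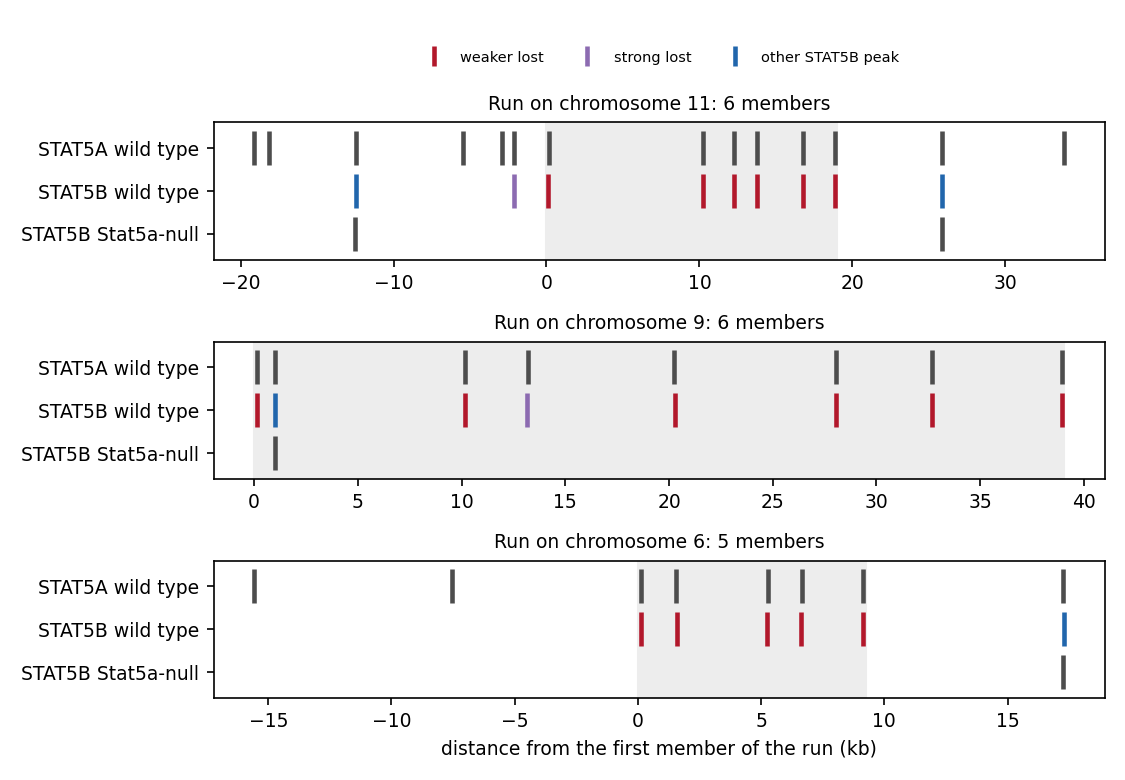
Peaks in the 3 longest runs of lost weaker STAT5B sites, as distance from the first site of the run (kb), with 1 row of marks for each of the 3 lists (wild type STAT5A, wild type STAT5B, Stat5a-null STAT5B). Grey shading marks the run, red marks its sites, purple stronger lost sites and blue the other wild type STAT5B peaks. The runs on chromosomes 11 and 6 hold no Stat5a-null peak, and that on chromosome 9 holds 1.

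The lost weaker sites were found on every placed chromosome, from 311 on chromosome 2 to 64 on the X, and 3 lay on unplaced sequence. The share lost among weaker STAT5B sites with STAT5A varied little, with an autosomal median of 80.3%. It was lowest on chromosome 11 at 74.3% (69.1% to 79.0%) and highest on the X at 86.5% (76.5% to 93.3%, 64 of 74). The 95% intervals of 19 of the 20 chromosomes held the share over all chromosomes, 79.7%, and chromosome 11 was the exception. Among 20 such intervals a miss like this can come from counting error alone, so nothing is read from it. The X carried 1.55% (1.20% to 1.98%) of lost weaker sites, 0.952% (0.458% to 1.74%) of weaker kept sites, 0.370% (0.1204% to 0.862%) of stronger kept sites and 0 of the 369 stronger lost sites. That 0 has an exact 95% interval of up to 0.995%, and a limit of 3 counts allows a share of up to 0.813%. It carried 2.05% of all STAT5A peaks. Per 100 STAT5A peaks, the X held 11.9 lost weaker sites and the median autosome 15.9.

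**Figure D5:**
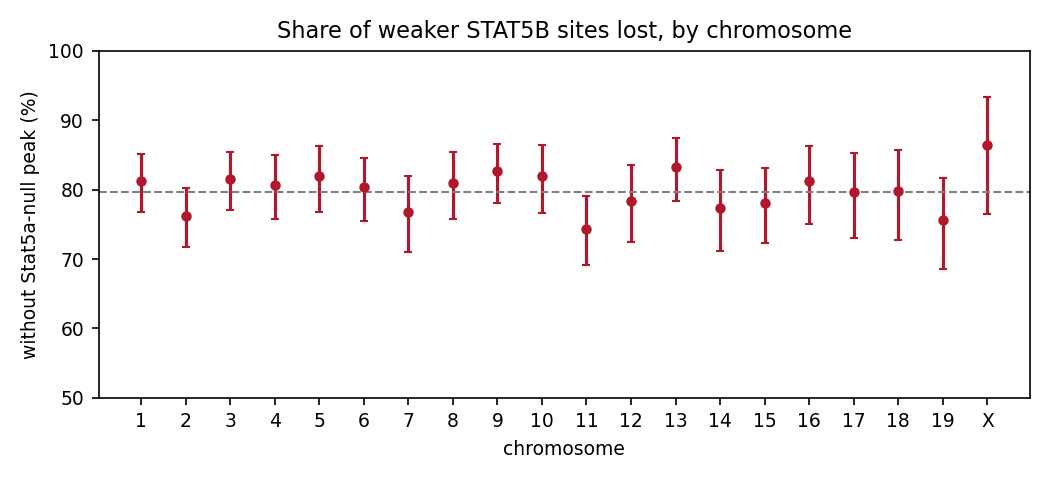
Share of weaker STAT5B sites with STAT5A that had no Stat5a-null STAT5B peak (percent; the axis starts at 50), by chromosome, with exact 95% intervals. The dashed line is the share over all chromosomes, 79.7%. The interval of chromosome 11 alone does not reach it, with an upper bound of 79.0%.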

How the data were processed

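Per the submitters' processing notes, CASAVA, BWA and HOMER were used, on the mm9 build. Of the peak calls, neither tool versions nor the control library nor the cutoffs are stated in these sources. The deposited lists give a position and 1 signal value per peak (called the score here), whose scale the authors did not state. Total reads per library are unknown. Steps were searched from 0.155 to 0.40 with a rounding tolerance of 0.05, and the largest that made every score of a list a whole multiple was read as 1 tag.

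Starts were read as 0-based and are printed 1-based. Peaks were called shared at an overlap of at least 1 bp. Peak distances are gaps between edges, and centre distances are between midpoints. Shares have exact Clopper-Pearson 95% intervals, which treat peaks as independent. Differences combined over bands of STAT5B score have a normal 95% interval and were added after the bands' values were seen. The weight of a band was its lost sites times its kept sites, divided by all its sites. Overlaps were tested on simulated data with known answers. Intervals came from scipy 1.17.1, run in Python 3.11.15 with pandas 2.3.3 and numpy 2.4.6, and figures from matplotlib 3.10.9.

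The class and all comparisons were chosen with earlier results of these data known. Sites named are those with the highest STAT5B score, the highest and lowest STAT5A scores, those at the score limit, those nearest to a Stat5a-null peak and the 3 longest runs. The site with the lowest STAT5B score was added after its values were seen. Without an mm9 genome or annotation, the planned search for the STAT5 element, the placement relative to genes and the gene lists were not run, and no sequence is printed. The design assumed no test, since each group has 1 library.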

Additional observations from a re-analysis of the deposited data

How the results depend on the processing

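For 5 values 25 alternatives were tried: 11 left the value inside its counting interval (a count inside 1.5 times its size), and 14 moved it. Shorter or longer distances and gaps can only lower or raise a share, and the bands of STAT5B score are subsets of the sites. Moves under those settings do not measure a dependence on processing. Requiring 50% of both peaks, centres within 100 bp or chromosomes 1 to 19 and X gave 4095, 4086 and 4116 lost weaker sites. Counting peaks within 500 bp as shared gave 4119 again, of which 4088 were the same peaks. Keeping the higher-scoring 50% of each list gave 1566 sites and a lost share of 88.8%, with fewer peaks by construction. This setting holds only STAT5B scores from 17.7 up to the limit, so 79.7% is not its baseline. In the full lists the lost share was 65.5% from 18 to below 21 and 50.8% from 21 up to the limit. In this range the lost share thus rose when the lists, that of Stat5a-null tissue included, were shortened. With the median score of the STAT5B list as the limit the share was 89.7%. The median STAT5A percentile was 71.9, 77.5, 84.1, 87.8 and 91.1 in the 5 bands of STAT5B score, from lowest to highest. The share of sites near a Stat5a-null peak was 0.753% within 500 bp, 1.97% within 1000 bp, 12.9% within 10000 bp and 29.8% within 50000 bp. The share in runs was 12.6% with gaps of 5 kb and 30.7% with 25 kb. Leaving out the X chromosome, or averaging STAT5A percentiles over single STAT5B scores, was added after the data were seen and moved neither value (79.6% and 81.7). No replicate could be left out, and no paired analysis was possible because each group has 1 library. How deeply the Stat5a-null library was sequenced sets how many weak sites can be called in it, and total reads are unknown. The step read as 1 tag was 0.239 in the wild type STAT5B list and 0.210 in the Stat5a-null list. Whether this step follows sequencing depth was not tested.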
